A study of Mus musculus with 12 samples.

Results

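The genes described here are 10 components of glucose uptake and glycolysis: the glucose transporters Slc2a1 and Slc2a3 and the enzymes Hk1, Pfkp, Aldoa, Aldoc, Tpi1, Pgk1, Pgam1 and Ldha. They were taken by name, with earlier results of these data known, together with every array probe annotated to them. This gave 19 probes, of which 15 were detected, among 45274 probes with values and 13571 detected probes in all. Each gene had at least 1 detected probe and was represented by its brightest one, so that all 10 were among the 8100 genes tested. The other 4 probes, 1 each of Pfkp, Aldoc, Pgk1 and Pgam1, were detected on 0 of 12 arrays.

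Glycolysis splits glucose into pyruvate in the cytosol and yields ATP without oxygen, and lactate dehydrogenase then turns pyruvate into lactate and restores the NAD+ that the pathway consumes. Activated T cells and natural killer (NK) cells given cytokines are known to take up more glucose and to raise glycolytic gene expression, in part through Myc, mTOR and HIF-1. Several enzymes exist as isozymes of different genes, so that cells can change the isozyme as well as the amount.

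The study set ITNK cells, NK-like cells derived from T cell precursors, against the DN3 cells they came from and against LAK cells, on Illumina mouse bead arrays with 4 arrays a group. ITNK is labelled as derived from DN3 thymocytes, DN3 (double-negative thymocytes at the stage before the pre-T cell receptor signal) as the parental T cells, and LAK (lymphokine-activated killer cells) as NK cells expanded with IL-2. One protocol text, the same on all 12 samples, describes cells of mice with Cre-ERT2, a Cre recombinase made active by tamoxifen, and floxed alleles of Bcl11b, a transcription factor of the T lineage. In that text thymocytes or splenocytes received 1 µM 4-hydroxytamoxifen for 48 h in medium with Flt3 ligand and IL-7, and sorted DN3 cells with both alleles floxed or with 1 floxed and 1 wild-type allele were grown on OP9-DL1 stroma with 100 ng/ml IL-2 until 14 days after the treatment. The text also covers splenic ITNK cells, kept in IL-2 at 1000 U/ml over 6 to 9 days, and no sample is labelled splenic. It does not say which steps applied to DN3 or LAK, which genotype each group carried, or what drives the Cre. By strain label DN3 was C57B7, LAK was C57B8 and ITNK was C57B6, and ages are not in the labels. These strain names differ only in the last digit, with consecutive numbers across the groups, so whether strain differed between the groups is not known. The labels do not state whether replicate arrays represent different animals or cultures. Each p-value is therefore read against array-to-array spread alone, part of which may be technical.

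Bcl11b averaged 11.77 ± 0.24 in DN3, 8.59 ± 0.35 in ITNK and 5.76 ± 0.36 in LAK (normalized log2 signal, SD, n = 4 each), and the sources used here do not place its probe within or outside the floxed part. Of 10 NK markers 8 were measured, and all 8 were higher in ITNK and in LAK than in DN3. Their summed linear signal ran from 996 to 1685 in DN3, 17915 to 23518 in ITNK and 27988 to 33638 in LAK, while Ncr1 and Gzmb, also NK markers, were detected on 0 of 12 arrays. T precursor markers, 11 of 12 measured, were lower than in DN3 for 8 genes in ITNK and for 11 in LAK. On their brightest probes all 10 measured stromal markers were undetected in LAK, although over its 5 probes Cxcl12 was detected on 1 LAK array. The summed signal of the brightest probes was 1800 to 6086 in DN3, 1371 to 2139 in ITNK and 214 to 218 in LAK. Of the markers of other blood cells, 2 of 8 myeloid, 1 of 5 B cell and 1 of 7 erythroid genes were measured, and each of these 4 differed in at least 1 comparison. The globin gene Hba-a1 was higher in ITNK than in DN3 (log2 difference 2.91) and than in LAK (3.52), and lower in LAK than in DN3 (-0.61). The B cell gene Cd79b was undetected in LAK, at least 5.45-fold below DN3, and lower in ITNK than in DN3 (-0.50). Of the myeloid genes, Cd14 was detected in LAK alone, at least 2.93-fold above DN3, and Csf1r was lower in LAK than in DN3 (-0.27). Each array detected 11814 to 13141 probes, and arrays of a group correlated at 0.974 to 0.992. Slides were read from the code in each sample title, which the labels do not name as a slide. By this reading slide 1 held every LAK array with ITNK 1 and 2, and slide 2 held every DN3 array with ITNK 3 and 4. LAK against DN3 therefore has no value within a slide, and there slide and group can be separated only through the ITNK arrays.

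Promoter sequence was examined because most of these genes were higher in the same groups. The letters searched on both strands were ACGTG, the core of the element that HIF-1 binds, and CACGTG, the E-box of Myc and related factors, which contains ACGTG on each strand. The RefSeq table (GRCm38.p6), with 300 bases a promoter of which 250 lie before the start, held 14 promoters of 9 of the 10 genes. ACGTG was in 8 of the 14 promoters, and in at least 1 promoter of 7 of the 9 genes, against 19.6% of 32851 promoters and 21.8% of 27025 genes. CACGTG was in 1 of the 14, against 7.15% of all promoters. Shown are the 250 bases before the start, 5′ to 3′ on the gene's strand, with each match in capitals, for the transporter Slc2a1 (chr4:119108495-119108744, plus strand), Pgk1 (chrX:106186850-106187099, plus strand) and the first Ldha promoter (chr7:46845554-46845803, plus strand). The Slc2a1, Pgk1 and Ldha promoters hold 1, 2 and 3 matching stretches there, and those of Pgam1 and 2 of the Aldoa promoters, not printed, hold 1 each. These 2 Aldoa promoters overlap, and their match is 1 site that was counted for both.
Slc2a1: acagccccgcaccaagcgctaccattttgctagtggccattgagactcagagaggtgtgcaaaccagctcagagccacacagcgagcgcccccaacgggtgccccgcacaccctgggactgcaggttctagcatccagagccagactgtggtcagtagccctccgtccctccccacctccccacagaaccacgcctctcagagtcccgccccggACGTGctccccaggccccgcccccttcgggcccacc
Pgk1: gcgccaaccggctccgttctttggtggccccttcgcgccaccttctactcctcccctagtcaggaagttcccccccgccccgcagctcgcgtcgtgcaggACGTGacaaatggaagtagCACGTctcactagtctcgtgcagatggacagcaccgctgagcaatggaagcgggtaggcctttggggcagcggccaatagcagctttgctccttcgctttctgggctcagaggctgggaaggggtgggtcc
Ldha: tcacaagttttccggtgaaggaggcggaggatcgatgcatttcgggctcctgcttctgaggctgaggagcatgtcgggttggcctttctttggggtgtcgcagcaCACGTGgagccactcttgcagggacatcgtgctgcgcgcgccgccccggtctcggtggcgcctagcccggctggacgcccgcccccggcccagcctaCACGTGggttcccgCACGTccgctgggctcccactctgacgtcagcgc
The Slc2a1 match began 36 bases before the start, the Pgk1 matches 150 and 131 bases before it, and the Ldha matches 145, 48 and 34 bases before it. The Ldha matches at 145 and 48 bases were CACGTG. No match was found in the single listed promoters of Pfkp and Tpi1. Hk1 held ACGTG in its second promoter, 7 and 16 bases after the start, and Aldoc in its first, 27 bases after it. Over the full 300 bases ACGTG thus occurred in genes that differed between groups and in Hk1, which did not pass in any comparison. In the 250 bases before the start Hk1 held 0 matches, as did Pfkp, Aldoc and Tpi1. A match is a description of the letters and not evidence of binding.

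Pfkp, Aldoa, Pgk1, Pgam1 and Slc2a1, or 5 of the 10 genes, were both higher in ITNK than in DN3 and lower in ITNK than in LAK. Taken singly, 23.5% of all genes were higher in ITNK than in DN3 and 15.7% were lower in ITNK than in LAK. The share of all genes with both calls was not computed. Signals are normalized log2 values of the brightest detected probe, differences are group means in the limma fit with their standard error (SE), and a gene passed at a Benjamini-Hochberg adjusted p under 0.05 over the 8100 genes. The 10 genes were chosen with earlier results of these data known, so the shares of all genes describe the list and test nothing. In ITNK against DN3, 7 of the 10 were higher, where 23.5% of all genes were, and 0 were lower, where 28.2% of all genes were. Hk1, Ldha and Slc2a3 did not pass. The median difference of the 10 genes was 0.72 (range -0.17 to 1.79), with a median of -0.04 over all genes, and 3 genes were at least 2-fold higher, as were 7.37% of all genes. The groups did not overlap in 7 of the 10, as in 47.8% of all genes. RNA of whole populations was measured, so more cells of a type and more RNA per cell cannot be told apart. Stromal signal was lower in ITNK than in DN3 for 5 of its 10 measured markers and higher for 2, and its part in these differences was not tested.

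In LAK against DN3, 9 of the 10 were higher, against 28.6% of all genes, 0 were lower, against 31.9%, and Hk1 did not pass. The median difference was 1.94 (range 0.15 to 2.44), with -0.02 over all genes, and 7 genes were at least 2-fold higher, as were 9.75% of all genes. The groups did not overlap in 8 of the 10 (56.4% of all genes). In ITNK against LAK, 6 of the 10 were lower, against 15.7% of all genes, and 0 were higher, against 18%. Hk1, Aldoc, Tpi1 and Ldha did not pass. The median difference was -0.73 (range -1.98 to -0.22), with -0.01 over all genes, and 3 genes were at least 2-fold lower, as were 3.43% of all genes. The groups did not overlap in 6 of the 10 (31.8% of all genes). The 3 comparisons share their groups, so they are not independent of each other.

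With slide as a fixed block, the differences ran from -0.21 (Hk1) to 1.64 (Aldoc) in ITNK against DN3, from -2.15 (Slc2a3) to -0.27 (Tpi1) in ITNK against LAK, and from 0.07 (Hk1) to 2.79 (Slc2a3) in LAK against DN3. The members past the test then numbered 6, 5 and 9, where 44.4%, 27.7% and 41% of all genes passed in either direction. Within slide 2 alone, 8 of the 10 passed in ITNK against DN3 (45.3% of all genes), and within slide 1 alone, 4 passed in ITNK against LAK (22.9% of all genes). The calls of Slc2a1, Slc2a3, Aldoa and Pgk1 changed in at least 1 of these fits, which also differ from the main fit in precision. Within a slide the fits hold only ITNK 3 and 4 or ITNK 1 and 2. The Slc2a3 call also changed in fits that do not involve slide.

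**Figure D1:**
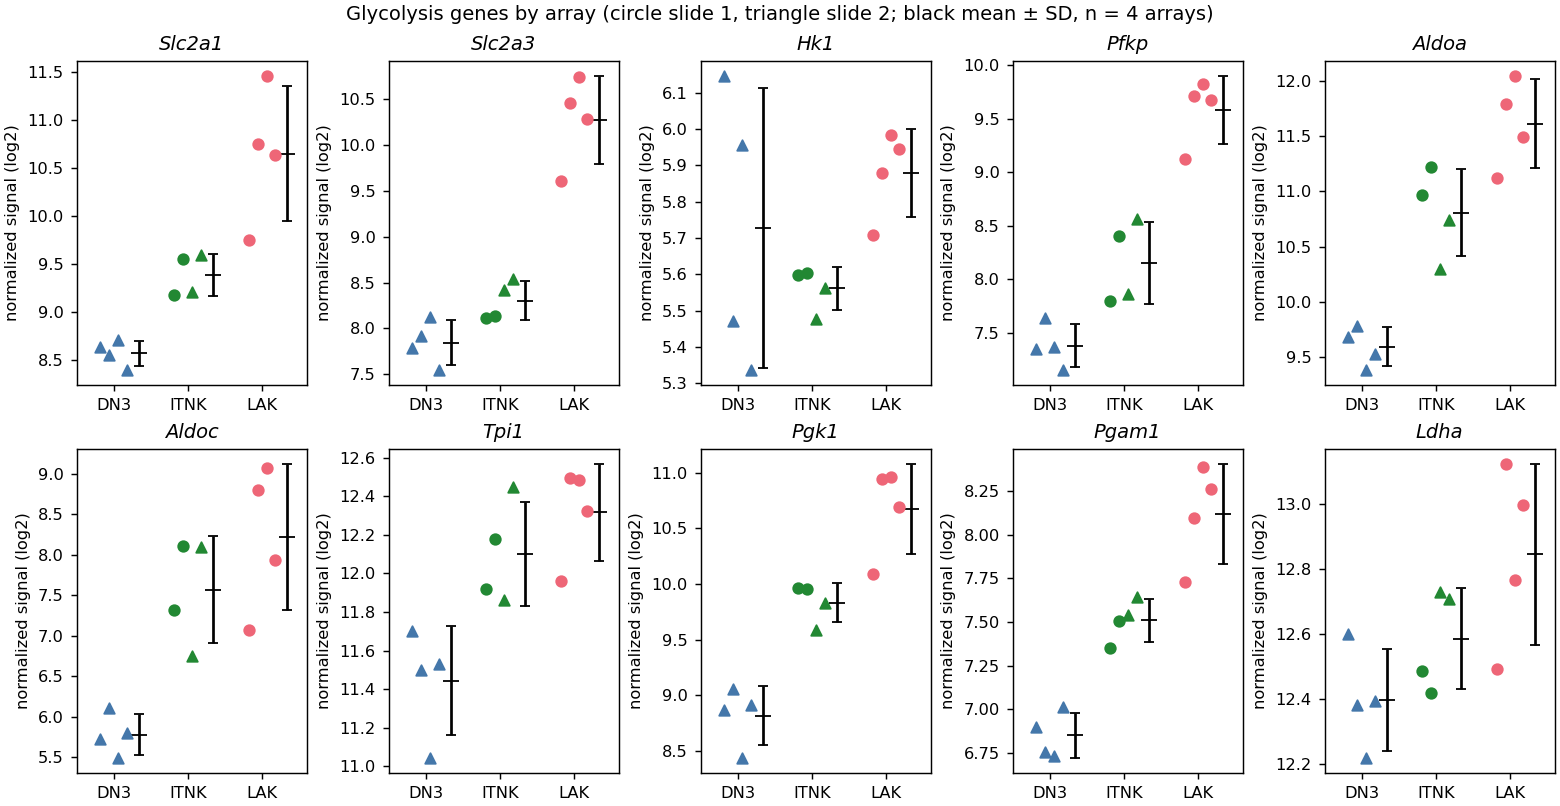
Normalized log2 signal (vertical axis) of each gene on every array of DN3, ITNK and LAK (horizontal axis), with circles for slide 1, triangles for slide 2 and a black mean ± SD (n = 4). The 4 DN3 arrays lie below the 4 LAK arrays in 8 of the 10 panels, and Hk1 and Ldha are the panels where they overlap.

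Slc2a1 encodes GLUT1, the transporter that brings basal and activation-induced glucose into lymphocytes (chr4:119108745-119137330 in GRCm38.p6). Its signal on arrays 1 to 4 was 8.63, 8.55, 8.70 and 8.39 in DN3, 9.17, 9.55, 9.21 and 9.59 in ITNK, and 9.75, 10.74, 11.46 and 10.63 in LAK. Every ITNK array was above every DN3 array and below every LAK array, with LAK 1 closest to ITNK. Slc2a1 was 1.76-fold higher in ITNK than in DN3 (log2 0.81, SE 0.26, limma adjusted p = 0.0169) and 2.40-fold lower in ITNK than in LAK (-1.27, SE 0.26, adjusted p = 0.00170). LAK exceeded DN3 4.23-fold (2.08, SE 0.26, adjusted p = 8.56e-06). With slide as a fixed block the ITNK to DN3 difference was 0.83 but no longer passed (adjusted p = 0.0596, within a range of 2.97e-04 to 0.0596 over 26 alternatives). Within slide 2 alone the same difference had an adjusted p of 0.00218.

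Slc2a3 encodes GLUT3, a high-affinity glucose transporter (chr6:122727809-122802363). It measured 7.79, 7.92, 8.13 and 7.54 in DN3, 8.11, 8.14, 8.42 and 8.54 in ITNK, and 9.61, 10.46, 10.75 and 10.29 in LAK. The LAK arrays stood apart from both other groups, and DN3 3 overlapped the lower ITNK arrays. LAK was 5.40-fold above DN3 (2.43, SE 0.21, adjusted p = 1.79e-07), and ITNK was 3.93-fold below LAK (-1.98, SE 0.21, adjusted p = 4.53e-06). ITNK and DN3 differed by 0.46 (SE 0.21, 95% interval 0.01 to 0.90), which did not pass after adjustment over all genes (adjusted p = 0.0781). That difference did pass under 6 of 26 alternatives, where its adjusted p ran from 0.00364 to 0.202: with median scaling (0.71, 0.00364), within slide 2 (0.64, 0.0134), with only the 8 arrays compared (0.0218), with a replicate block (0.0445), and without LAK 1 (0.0217) or LAK 3 (0.0486).

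Hk1, a hexokinase that traps glucose in the cell as glucose 6-phosphate (chr10:62268855-62379920), was the member that did not pass in any comparison. DN3 arrays gave 6.15, 5.47, 5.96 and 5.34, ITNK arrays 5.60, 5.60, 5.48 and 5.56, and LAK arrays 5.71, 5.88, 5.98 and 5.94. DN3 spanned both other groups, whereas the ITNK arrays lay just below the LAK arrays without overlap. The difference was -0.17 for ITNK against DN3 (95% interval -0.50 to 0.17, adjusted p = 0.390), 0.15 for LAK against DN3 (-0.18 to 0.48, adjusted p = 0.417) and -0.32 for ITNK against LAK (-0.65 to 0.01, adjusted p = 0.134). The last one passed with only the 8 arrays of ITNK and LAK in the fit (adjusted p = 0.0375, range 0.0375 to 0.337 over 26 alternatives). Hk2, the hexokinase isozyme of many activated lymphocytes, had no probe with a single symbol and was not analysed here.

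Pfkp, the platelet isozyme of phosphofructokinase, catalyses the committed step of glycolysis (chr13:6579874-6649060). Its signal was 7.35, 7.64, 7.37 and 7.15 in DN3, 7.79, 8.41, 7.86 and 8.56 in ITNK, and 9.12, 9.71, 9.82 and 9.68 in LAK. The 3 groups formed 3 separate ranges. ITNK was 1.71-fold above DN3 (0.78, SE 0.19, adjusted p = 0.00391) and 2.69-fold below LAK (-1.43, SE 0.19, adjusted p = 5.35e-05), and LAK was 4.61-fold above DN3 (2.20, SE 0.19, adjusted p = 2.52e-07). These calls held under every alternative run. A second detected probe of Pfkp gave differences of 1.25, -1.10 and 2.35 for the same 3 comparisons.

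Aldolase cleaves fructose 1,6-bisphosphate into both triose phosphates, and the broadly expressed isozyme Aldoa (chr7:126795234-126800994) and the brain-type isozyme Aldoc (chr11:78323073-78327781) were both on the list. Aldoa measured 9.68, 9.78, 9.38 and 9.53 in DN3, 10.96, 11.22, 10.29 and 10.74 in ITNK, and 11.12, 11.80, 12.05 and 11.50 in LAK. DN3 lay apart from both other groups, and ITNK 2 exceeded LAK 1. Aldoa was 2.32-fold higher in ITNK than in DN3 (1.21, SE 0.21, adjusted p = 2.52e-04) and 4.06-fold higher in LAK than in DN3 (2.02, SE 0.21, adjusted p = 1.40e-06). Its lower level in ITNK than in LAK (-0.81, SE 0.21, adjusted p = 0.00824) was not past the test on a slide basis, at -0.52 with slide as a block (adjusted p = 0.109) or within slide 1 (0.172), in a range of 0.00127 to 0.172 over 26 alternatives.

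Aldoc had the widest replicate spread of the 10 genes in ITNK (SD 0.66) and in LAK (SD 0.90). Its arrays gave 5.73, 6.10, 5.49 and 5.79 in DN3, 7.32, 8.11, 6.74 and 8.09 in ITNK, and 7.07, 8.80, 9.07 and 7.93 in LAK. Each ITNK and LAK array was above all DN3 arrays, while ITNK and LAK overlapped. Aldoc had the largest member difference in ITNK against DN3, 3.45-fold (1.79, SE 0.39, adjusted p = 0.00151), and was 5.43-fold higher in LAK than in DN3 (2.44, SE 0.39, adjusted p = 8.62e-05). ITNK against LAK gave -0.65 (SE 0.39, 95% interval -1.48 to 0.18, adjusted p = 0.219), and single arrays moved it in both directions. Without LAK 1 it was -1.03 and passed (adjusted p = 0.0281, range 0.0281 to 0.546 over 26 alternatives), and without LAK 3 or ITNK 3 it was -0.37 or -0.38.

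Tpi1 encodes triosephosphate isomerase, which interconverts both triose phosphates (chr6:124810586-124814158). The brightest probe gave 11.70, 11.50, 11.04 and 11.53 in DN3, 11.92, 12.18, 11.86 and 12.45 in ITNK, and 11.96, 12.50, 12.49 and 12.32 in LAK. All DN3 arrays were below the other 8, and ITNK and LAK overlapped. ITNK was 1.58-fold above DN3 (0.66, SE 0.17, adjusted p = 0.00533) and LAK 1.83-fold above DN3 (0.87, SE 0.17, adjusted p = 5.22e-04). ITNK against LAK was -0.22 (95% interval -0.58 to 0.15, adjusted p = 0.364).

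The 3 detected Tpi1 probes disagreed. A second probe, ILMN_2932359, was higher in ITNK than in DN3 (1.08, adjusted p = 5.88e-04) and in LAK than in DN3 (1.84, adjusted p = 2.77e-06), and lower in ITNK than in LAK (-0.76, adjusted p = 0.0113). The third, ILMN_1231447, went the other way, with 7.29, 7.49, 6.93 and 7.27 in DN3, 6.15, 6.34, 6.30 and 6.57 in ITNK, and 6.34, 6.39, 6.37 and 6.53 in LAK. DN3 was above every other array on this probe, which was lower in ITNK (-0.90, SE 0.13, adjusted p = 4.05e-05) and in LAK (-0.84, adjusted p = 4.99e-05). With the mean over the 3 probes Tpi1 no longer passed in ITNK against DN3 (0.28, adjusted p = 0.114, range 1.34e-04 to 0.114 over 26 alternatives). Probe sequences were not used here, and which transcripts each probe reads was not tested.

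Pgk1 encodes phosphoglycerate kinase, the first ATP-yielding step (chrX:106187100-106203699). It measured 8.87, 9.06, 8.43 and 8.91 in DN3, 9.97, 9.96, 9.58 and 9.83 in ITNK, and 10.09, 10.94, 10.96 and 10.70 in LAK. The groups did not overlap, with LAK 1 closest to the ITNK arrays. ITNK exceeded DN3 2.02-fold (1.01, SE 0.19, adjusted p = 4.48e-04) and was 1.79-fold lower than LAK (-0.84, SE 0.19, adjusted p = 0.00317). LAK was 3.62-fold above DN3 (1.86, SE 0.19, adjusted p = 1.12e-06). Within slide 1 the ITNK to LAK difference was -0.71 and did not pass (adjusted p = 0.0694, range 1.80e-04 to 0.0694 over 26 alternatives). A dim second probe, detected on 7 of 12 arrays, gave 0.00, -0.10 and 0.10 for ITNK against DN3, ITNK against LAK and LAK against DN3, and the mean over both probes lowered the 3 differences to 0.51, -0.47 and 0.98, which all passed.

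Pgam1, phosphoglycerate mutase, moves the phosphate within phosphoglycerate (chr19:41911871-41918665). DN3 arrays measured 6.90, 6.76, 6.73 and 7.01, ITNK arrays 7.35, 7.51, 7.54 and 7.65, and LAK arrays 7.73, 8.10, 8.39 and 8.26. Its groups again formed 3 separate ranges with close replicates. ITNK was 1.58-fold above DN3 (0.66, SE 0.13, adjusted p = 9.75e-04) and 1.53-fold below LAK (-0.61, SE 0.13, adjusted p = 0.00302), and LAK was 2.41-fold above DN3 (1.27, SE 0.13, adjusted p = 1.85e-06).

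Ldha encodes the lactate dehydrogenase subunit that favours lactate formation (chr7:46842274-46855627). Its signal was 12.60, 12.38, 12.22 and 12.39 in DN3, 12.49, 12.42, 12.73 and 12.71 in ITNK, and 12.49, 13.12, 12.77 and 13.00 in LAK. DN3 1 overlapped both other groups, so the ranges did not separate. LAK was 1.36-fold above DN3 (0.45, SE 0.14, adjusted p = 0.0127). ITNK against DN3 gave 0.19 (95% interval -0.11 to 0.49, adjusted p = 0.278), and ITNK against LAK gave -0.26 (-0.56 to 0.04, adjusted p = 0.174). The latter was -0.38 and passed without LAK 1 (adjusted p = 0.0423, range 0.0423 to 0.413 over 26 alternatives), and was -0.17 without LAK 2 (0.413).

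The Ldha values depended on how arrays were scaled. Median scaling moved the median of all genes to 0.19 in ITNK against DN3 and to 0.24 in LAK against DN3. Ldha then measured 0.71 in ITNK against DN3 (adjusted p = 0.00234, range 0.00234 to 0.510 over 26 alternatives) and 1.14 in LAK against DN3, or 0.53 and 0.90 relative to those medians. Relative to the same medians the 10 genes had median differences of 0.87 and 2.09. Under that scaling 72.2% of called genes were higher in ITNK against DN3 and 70.2% in LAK against DN3, in place of 45.5% and 47.3%. With slide as a block Ldha differed by 0.71 in LAK against DN3 (adjusted p = 0.0262).

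**Figure D2:**
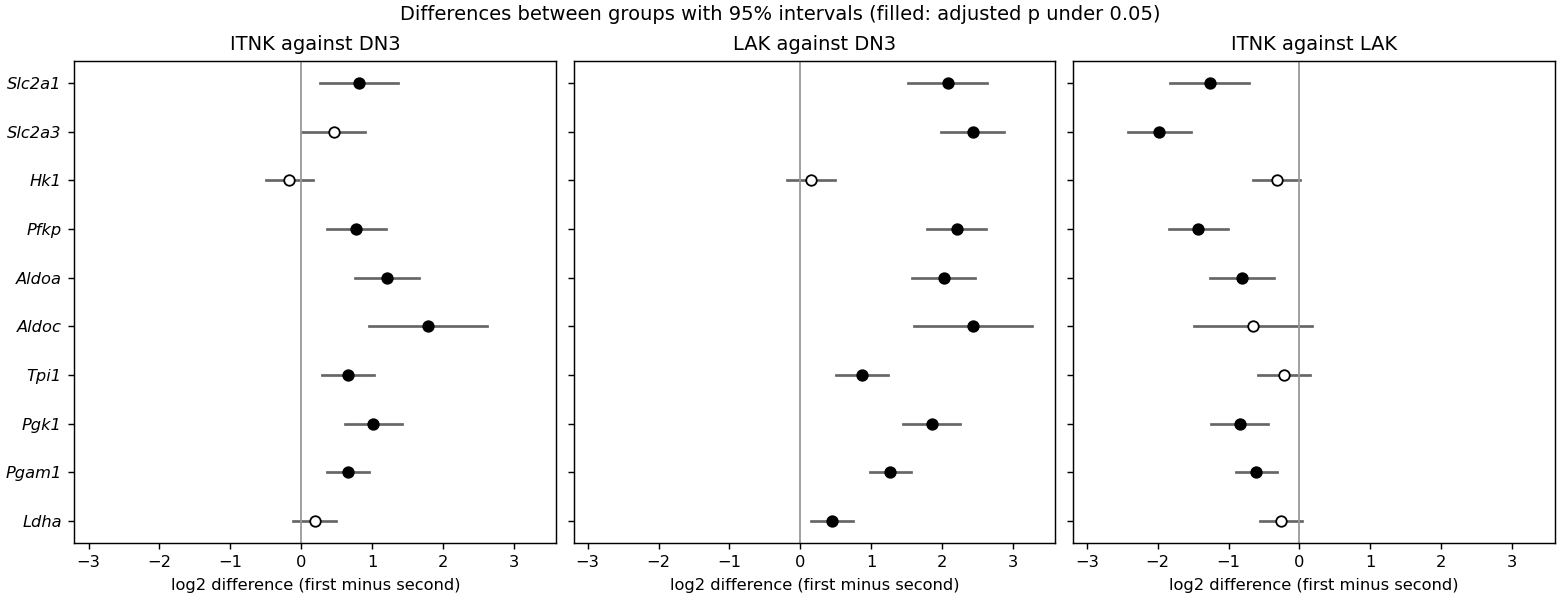
Log2 differences (horizontal axis, first group minus second) of the 10 genes (vertical axis) in the 3 comparisons, with 95% intervals and filled points where the adjusted p was under 0.05. Filled points number 7 for ITNK against DN3, 9 for LAK against DN3 and 6 for ITNK against LAK, and Hk1 is open in all 3 panels.

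Over the 15 detected probes, 9 were higher and 1 lower in ITNK than in DN3, where 23.3% and 26.4% of all detected probes were. In LAK against DN3, 11 were higher and 1 lower, with 29.8% of all detected probes in each direction. In ITNK against LAK, 8 were lower and 0 higher, with 15.5% of all detected probes lower and 16.3% higher. The single lower probe was the same Tpi1 probe in both comparisons with DN3. Near copies named in the gene table, such as pseudogenes, number 2 for Aldoa, 3 for Pgk1, 2 for Pgam1 and 3 for Ldha, so their probes may also read related transcripts and those values are uncertain in this respect.

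**Figure D3:**
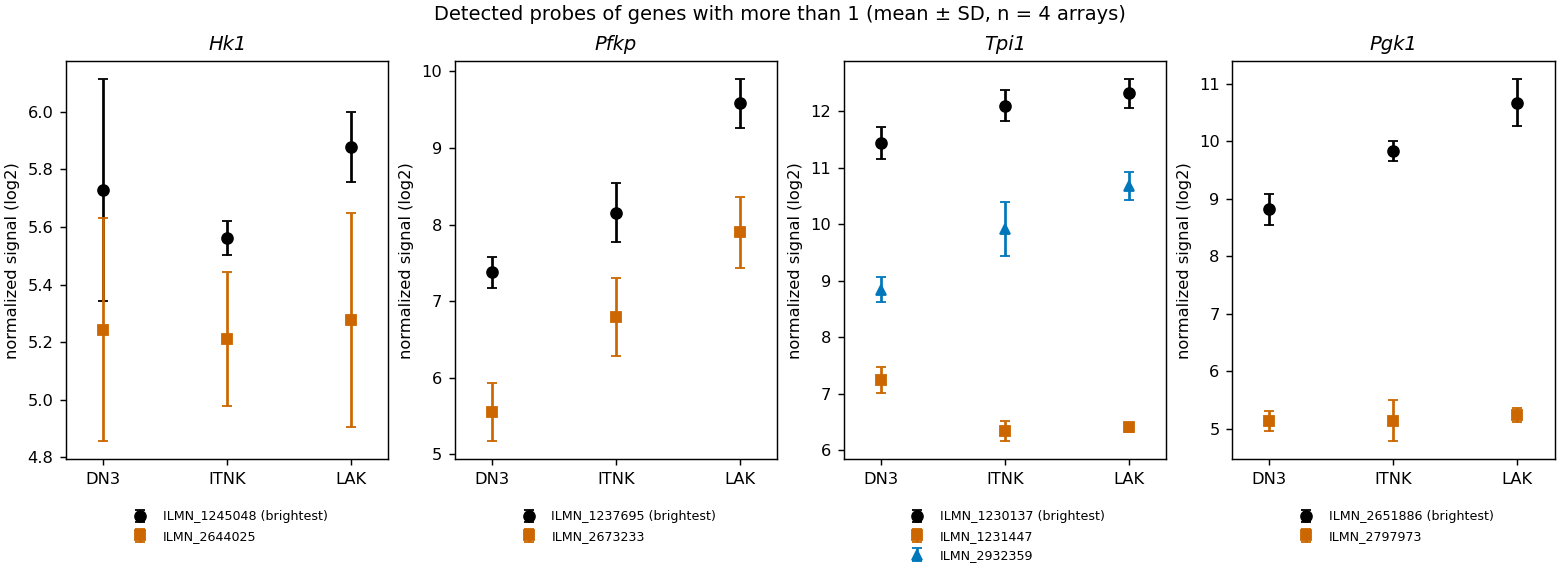
Normalized log2 signal (vertical axis, mean ± SD, n = 4 arrays) in each group (horizontal axis) for each detected probe of the 4 genes with more than 1. Both Pfkp probes increase from DN3 to LAK, the Tpi1 probe ILMN_1231447 is highest in DN3, and the dimmer Hk1 and Pgk1 probes are near level.

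ITNK lay at different points between DN3 and LAK depending on the gene. For the 7 genes that differed at least 2-fold between LAK and DN3, the position of the ITNK mean on the way from DN3 (0%) to LAK (100%) had a median of 52.0%. It was 18.8% for Slc2a3, 35.2% for Pfkp, 39.1% for Slc2a1, 52.0% for Pgam1, 54.7% for Pgk1, 60.0% for Aldoa and 73.3% for Aldoc. By group mean both transporters were thus nearer to DN3, and both aldolases nearer to LAK. Single ITNK arrays ran from 10.9% to 28.5% for Slc2a3 and from 29.1% to 49.1% for Slc2a1. They ran from 34.7% to 80.7% for Aldoa and from 39.6% to 95.4% for Aldoc, and ITNK 3, the lowest in both, was nearer to DN3. The place of Pfkp depended on the probe, since its second detected probe put ITNK at 53.2%. Over the 1617 genes of the whole array that met the same criterion the median was 61.6%, with quartiles of 37.3% and 83.2%. These positions are descriptions without a test.

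Replicates also varied together. LAK 1 was the lowest LAK array for 10 of the 10 genes, and LAK 3 was the highest for 8 and LAK 2 for 2, while over all 8100 genes LAK 1 was lowest for 22.6% and LAK 3 for 33.4%. The LAK 1 deviations from the group mean ran from -1.14 (Aldoc) to -0.17 (Hk1). LAK 1 correlated with the other LAK arrays at a mean of 0.984, inside the 0.978 to 0.986 of the group. Proliferation genes had summed signals of 10120, 9564, 5391 and 9238 on LAK 1 to 4, so that LAK 3 was low in these genes where most of the 10 were high, and their part in the difference was not tested. Without LAK 1, 8 of the 10 genes passed in ITNK against LAK, where 31.7% of all genes did, and 8 in ITNK against DN3, where 51.3% did. Among the other arrays, DN3 3 was lowest in its group for 6 genes and DN3 4 for 4, and ITNK 3 was lowest for 5. The ITNK arrays of slide 1 differed from those of slide 2 by -0.36 (Slc2a3) to 0.58 (Aldoa), where the central 95% of all genes ran from -0.49 to 0.50.

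**Figure D4:**
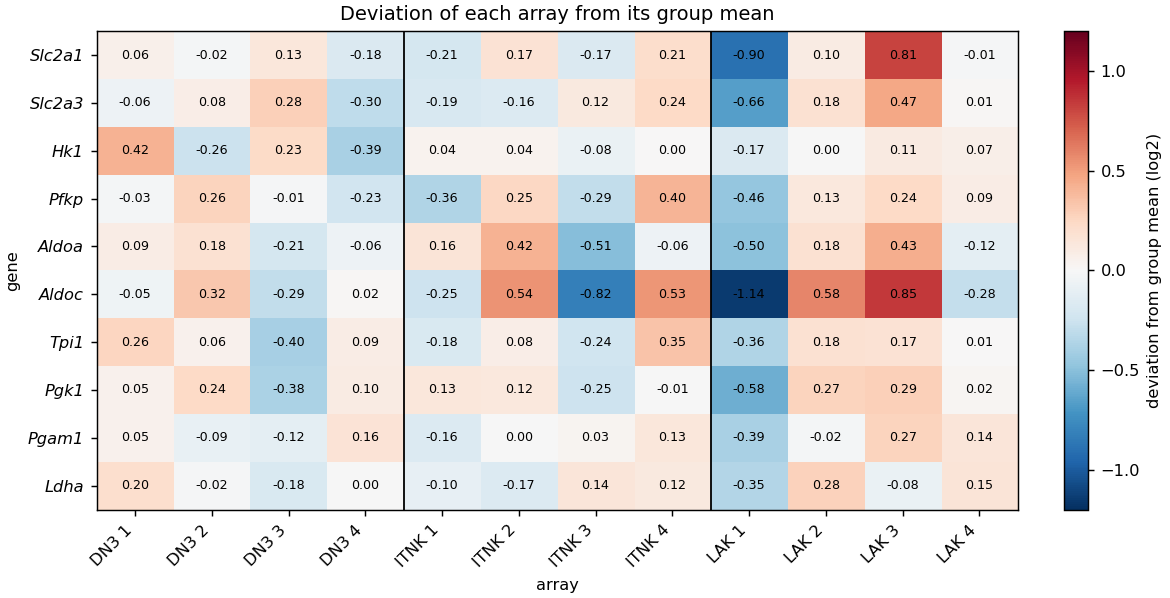
Deviation of each array (horizontal axis) from its group mean in normalized log2 signal (colour and printed value) for each gene (vertical axis). LAK 1 is below its group mean for all 10 genes, by up to 1.14 for Aldoc, and LAK 3 is above it for 9, with Ldha the exception.

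With all 10 genes standardized over the 12 arrays and averaged, the genes outside the list with the most similar pattern were Ppp1r3b (Pearson r = 0.978), Omp (0.965), Car5b (0.965), Sdhaf4 (0.964) and Sh2d1b1 (0.964). Of 8090 genes 248, or 3.07%, had r over 0.9 with this average, and the 12 arrays fall into 3 groups that set much of it. For Ldha alone the closest were Ppme1 (0.904), Rundc1 (0.887), Ccdc58 (0.856), Scd2 (0.856) and Cdc27 (0.854). Among the 10 themselves, Hk1 followed the mean of the other members least (r = 0.310) and Slc2a1 followed it closely (0.974). These are descriptions over 12 arrays.

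Directions among the other glycolytic enzymes were mixed. Of 22 listed, 8 were measured, 9 had probes that did not pass the detection filter, and 5, such as Gpi1 and Eno1, had no probe with a single symbol. In ITNK against DN3, 1 was higher, 2 were lower and 5 did not pass, with a median of -0.14. Pfkm, the muscle isozyme of phosphofructokinase, fell by 1.01 (SE 0.12, adjusted p = 1.05e-05), opposite to Pfkp, and Eno2, the neuronal enolase, fell by 0.58 (SE 0.17, adjusted p = 0.0101). Eno2 was near background, detected on 3 of 4 DN3 and 1 of 4 ITNK arrays, and blocking on slide (-0.42, adjusted p = 0.101) or fitting slide 2 alone (0.119) ended its call. Hk3 was undetected in DN3 and at least 1.24-fold higher in ITNK (adjusted p = 0.0190), but was detected on 1 of 4 ITNK arrays, and the call was lost without ITNK 4 (0.0628) and with an offset of 50 (0.0937). In LAK against DN3, 5 were higher (Hk3, Pfkl, Gapdh, Eno3 and Pkm), 3 were lower (Adpgk, Pfkm and Eno2) and the median was 0.46. Gapdh, the dehydrogenase between aldolase and Pgk1, was higher by 0.41 (SE 0.12, adjusted p = 0.00764) and Pkm, pyruvate kinase, by 0.51 (SE 0.13, adjusted p = 0.00431). Both calls were lost in the fit that blocked on slide (Gapdh 0.24, adjusted p = 0.356, and Pkm 0.39, 0.203), as were those of Eno2 (0.183) and Pfkl (0.632), and Pkm was also lost with its probes averaged (0.20, 0.212). Median scaling ended the calls of Adpgk (0.359) and Pfkm (0.0503). The call of Pfkl (0.53, adjusted p = 0.0439) was lost when any of 8 arrays was left out (range 0.00168 to 0.129). In ITNK against LAK, 4 were lower (Hk3, Pfkl, Gapdh and Eno3, of which Gapdh was lost with slide as a block, at 0.0825, and Pfkl and Gapdh within slide 1, at 0.0676 and 0.143), Adpgk was higher by 0.48 (SE 0.10, adjusted p = 0.00212) and the median was -0.38. Here and in the lists that follow, genes that differed less than 2-fold were named after their values were seen. The counts of all these lists stand beside 23.5% of all genes higher and 28.2% lower in ITNK against DN3. The shares were 28.6% and 31.9% in LAK against DN3, and 18% and 15.7% in ITNK against LAK.

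Of 12 other glucose transporters 2 were measured. Slc2a6, GLUT6, was highest in ITNK, with 8.68, 8.73, 8.56 and 8.81 in ITNK, 7.79, 6.90, 6.53 and 6.77 in LAK, and 4.97, 5.36, 5.46 and 4.82 in DN3. The groups did not overlap, and LAK 1 was the highest LAK array, unlike in the 10 genes. Its difference was 3.54 in ITNK against DN3 (SE 0.22, adjusted p = 2.60e-08), 1.85 in LAK against DN3 (SE 0.22, adjusted p = 6.69e-06) and 1.69 in ITNK against LAK (SE 0.22, adjusted p = 4.34e-05). Slc2a6 was detected on 2 of 4 DN3 arrays, so the size of both differences from DN3 is uncertain. Over the alternatives they ran from 2.365 to 3.69 for ITNK and from 1.015 to 2.02 for LAK. Slc2a8, detected on 1 of 4 DN3 arrays, was higher in LAK than in DN3 (0.48, SE 0.14, adjusted p = 0.00675), but blocking on slide ended this call (0.18, adjusted p = 0.543).

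Of 18 regulators of the pathway 9 were measured. In ITNK against DN3, 0 were higher and 4 lower, namely Pfkfb2, Txnip, Mlxip and Mtor, with a median of -0.13. Txnip, which promotes removal of glucose transporters from the cell surface, fell by 1.48 in ITNK (SE 0.26, adjusted p = 3.11e-04) and by 0.81 in LAK against DN3 (SE 0.26, adjusted p = 0.0151), the latter call being lost with median scaling (-0.28, adjusted p = 0.282), when blocking on slide (-1.15, 0.0633) and without LAK 1 (-0.64, 0.0511). Its relative Arrdc4 was higher in LAK than in DN3 by 1.90 (SE 0.25, adjusted p = 1.52e-05) and lower in ITNK than in LAK by -1.39 (SE 0.25, adjusted p = 6.61e-04). In LAK against DN3, 3 were higher (Arrdc4, Hif1a and Mlxip) and 4 lower (Pfkfb2, Pfkfb4, Txnip and Mtor), and the median was -0.24. Hif1a, the oxygen-regulated subunit of HIF-1, was higher in LAK by 0.36 (SE 0.11, adjusted p = 0.0125) and lower in ITNK than in LAK by -0.43 (SE 0.11, adjusted p = 0.00786), and Arrdc4, Mlxip and Mtor were the other 3 lower there (median -0.26). Blocking on slide ended both Hif1a calls (0.18, adjusted p = 0.456, and -0.35, 0.0679), as did the authors' processed values (0.0948 and 0.0834), and the second was also lost within slide 1 (0.122). Mtor reversed when its probes were averaged and its ITNK to LAK difference passed in 2 of the 12 fits that left out 1 array (range of adjusted p 0.0340 to 0.121). Slide as a block also ended the calls of Pfkfb2, Pfkfb4 and Mtor in LAK against DN3. Median scaling ended those of Mlxip, Mtor and Pfkfb2 in ITNK against DN3, and those of Pfkfb2, Pfkfb4 and Mtor in LAK against DN3. Myc did not pass in any comparison.

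Of 19 hypoxia response genes outside glycolysis 13 were measured. The shares of all genes were 23.5% higher and 28.2% lower in ITNK against DN3, and 28.6% and 31.9% in LAK against DN3. In ITNK against DN3, Ddit4, an inhibitor of mTOR signalling, was higher (1.04, SE 0.26, adjusted p = 0.00459), Vegfa and Ankrd37 were lower and 10 did not pass (median -0.22). In LAK against DN3, 6 were higher, among them Ankrd37 (1.96, adjusted p = 3.46e-04), Hilpda (1.51, adjusted p = 1.25e-04), Pdgfb (1.21, adjusted p = 0.00105) and Ddit4 (1.19, adjusted p = 0.00138), and 3 were lower (Vegfa, Egln3 and Kdm3a). The median was 0.33. With slide as a block Ddit4 no longer passed there (0.85, adjusted p = 0.165), nor did P4ha1 (0.0628), Mif (0.111), Egln3 (0.147) and Kdm3a (0.165), and median scaling ended the calls of Egln3 (0.0691) and Kdm3a (0.654). In ITNK against LAK, 0 were higher and 4 lower (P4ha1, Ankrd37, Pdgfb and Hilpda), with a median of -0.15. Pdgfb was detected on 1 of 4 DN3 arrays. Vegfa, the angiogenic growth factor, was lower in ITNK (-1.50, SE 0.35, adjusted p = 0.00239) and in LAK (-1.75, SE 0.35, adjusted p = 5.72e-04) than in DN3, opposite to most of the 10 glycolysis genes. It was detected on 3 of 4 LAK arrays, with LAK 1 at 4.46 and the others at 6.43, 6.44 and 6.01. With 1 array left out its LAK to DN3 difference ran from -1.95 to -1.29. Ankrd37 was undetected in ITNK, at least 7.33-fold below LAK (adjusted p = 3.03e-05) and at least 1.88-fold below DN3 (adjusted p = 0.0494), and the last call was lost when any of 9 arrays was left out (0.00135 to 0.110). Egln3 in LAK against DN3 (-0.92, adjusted p = 0.0435) was likewise lost without any of 9 arrays (0.00587 to 0.0930), at -0.44 without LAK 1. As in the 10 glycolysis genes, LAK 1 was the lowest LAK array for the mean log2 signal of the 13 measured genes. That mean was 7.05, 8.12, 8.25 and 7.87 on LAK 1 to 4.

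**Figure D5:**
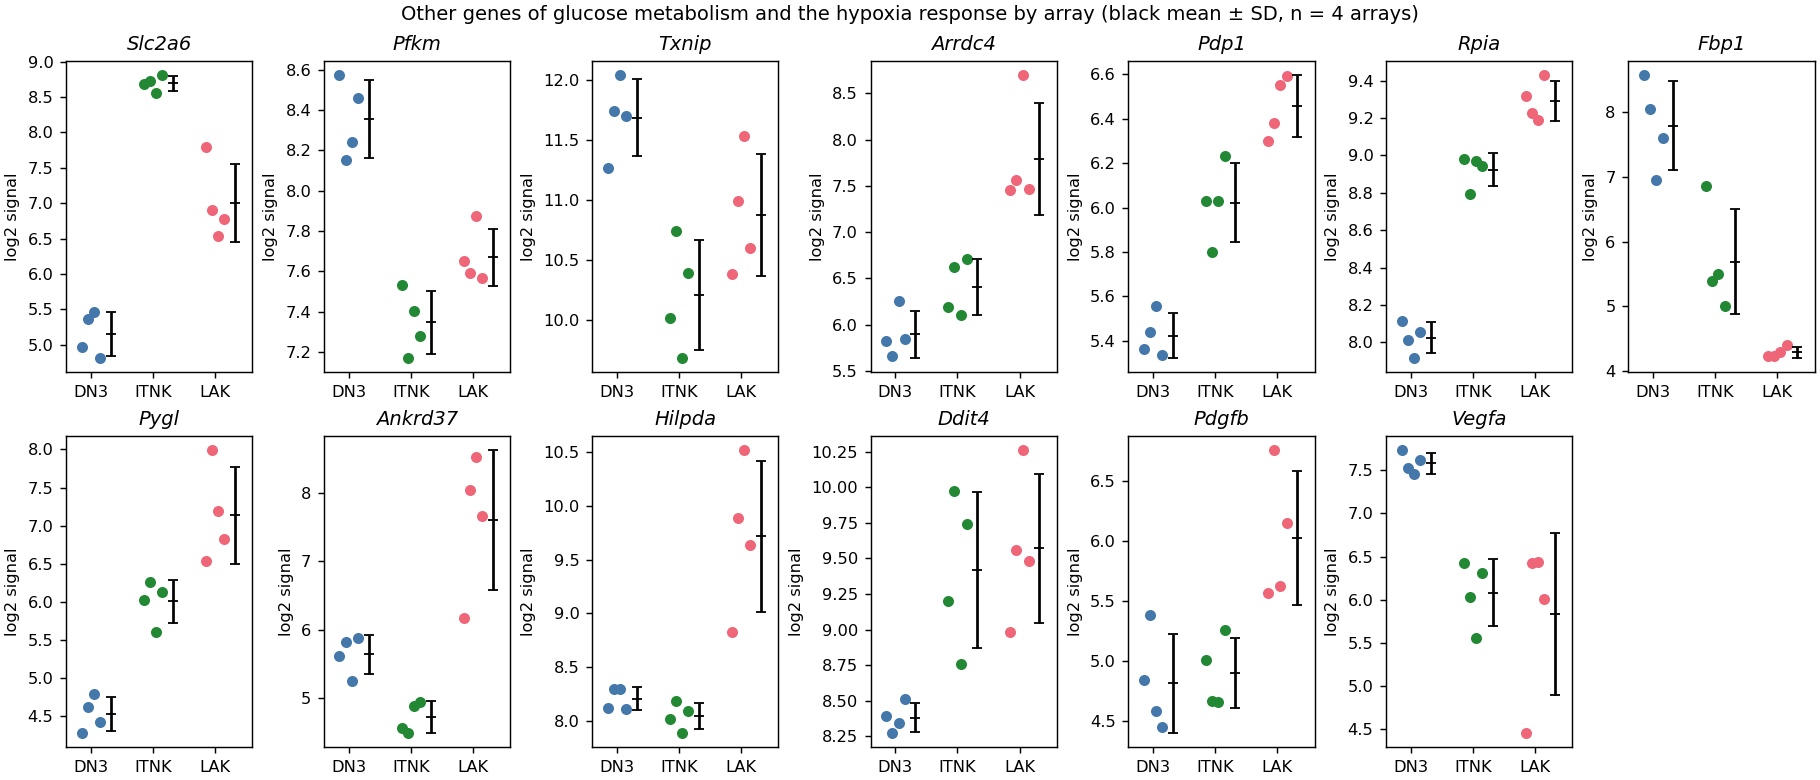
Normalized log2 signal (vertical axis) of 13 other genes of glucose metabolism and the hypoxia response on each array of DN3, ITNK and LAK (horizontal axis), with a black mean ± SD (n = 4). Slc2a6 is highest in ITNK, Pfkm and Vegfa are highest in DN3, and every LAK array exceeds the other arrays for Hilpda, whose mean is 1.51 above that of DN3.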

How the data were processed

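Total RNA of 12 samples was hybridised to Illumina mouse bead arrays, 4 each of DN3, ITNK and LAK as the labels name them. The scanner table that was deposited gives, per the file headers, the intensity of each probe on each array as a linear mean over beads, without normalization. A detection fraction from 0 to 1 is deposited with it, and its complement to 1 was taken as the detection p-value. Another table deposited by the authors holds processed log2 values, whose method is not given in the sources used here, and it served as an alternative.

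Intensities were background corrected and quantile normalized with neqc (offset 16) in limma 3.58.1 under R 4.3.3. Of 45281 probes 7 had no values. The platform annotation gave 1 symbol to 34880 of the rest, several to 18 and none to 10376, and 34802 of 34898 annotated probes matched the RefSeq gene table (GRCm38.p6), which supplied the gene coordinates. Probes with a detection p under 0.01 on at least 4 arrays were kept (13571, of which 1804 had no single symbol), and the brightest probe stood for a gene (8100 genes). Groups were compared in 1 limma model over the 12 arrays, using 2-sided moderated tests, and p-values were adjusted by Benjamini-Hochberg, over genes or over detected probes. The number of arrays limits the precision. A gene undetected in a group has only a bound there. It was computed against the lowest detected signal of each array, or the gene's own signal where that was higher. For Ankrd37 in ITNK the bounds equal the measured fold differences.

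The 10 genes and all gene lists were chosen with earlier results of these data known. All 10 were named, and of other lists the genes at least 2-fold different from DN3 and past the test, at most 5 a list by size. The fit was tested on simulated data. Alternatives covered background correction, offset, scaling, the processed values, the dim-probe filter, probe averaging, the arrays in the fit, slide, replicate number and each array left out. Protein sequences and an Slc2a3 promoter were not used here.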

Additional observations from a re-analysis of the deposited data

How the results depend on the processing

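All 10 genes kept their direction in each comparison under every alternative run. Leaving out each array in turn gave 7 to 8 members past the test in ITNK against DN3, 6 to 8 in ITNK against LAK and 9 in LAK against DN3, with 3718 to 4383, 2352 to 2720 and 4568 to 4903 of all genes and 10 to 11, 8 to 10 and 12 member probes. Over the other alternatives the members past the test numbered 6 to 9, 4 to 7 and 9, where 22.3% to 53.2%, 14.2% to 34.4% and 29.2% to 60.7% of all genes tested passed. In ITNK against LAK, 5 member probes passed within 1 slide in place of 8, where fewer arrays enter, and 1787 genes passed in place of 2727 when only the 5846 genes with probes detected on all 12 arrays were tested. Averaging the probes of a gene reversed Mtor in ITNK against DN3 (0.27), ITNK against LAK (0.19) and LAK against DN3 (0.081), and Pdhb in ITNK against DN3 (-0.077) and LAK against DN3 (-0.068), and the cause was not tested. For the 44 called genes of the other lists, calls were kept in 1956 refits and lost in 204. Median scaling raised Tpi1 to 1.10 in ITNK against DN3 and 1.45 in LAK against DN3. Whether replicate numbers pair the samples was not settled. Over 12 same-number pairs the correlation of deviations ran from -0.34 to 0.21, with 2 over 0.1. These were ITNK 1 with DN3 1 (0.18) and ITNK 2 with DN3 2 (0.21). The pairs ITNK 3 with DN3 3 (-0.02) and ITNK 4 with DN3 4 (0.02) were near 0. In both other groups at once, 0 of 12 samples correlated best with their own number. With the replicate block 8, 6 and 9 members, 4024, 2558 and 4771 genes and 11, 8 and 12 member probes passed in the 3 comparisons. Signal over background limits Hk1 and the dim second probes of Hk1 and Pgk1, detected on 9 and 7 of 12 arrays.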

Other observations

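Genes around glycolysis showed mixed directions. Of 21 genes of pyruvate and lactate fate 10 were measured. In ITNK against DN3, 4 were higher (Emb, Pdhb, Pdk3 and Pdp1) and 2 lower (Pdha1 and Pdk1). Of all genes 23.5% were higher and 28.2% lower there. Pdp1, a phosphatase that activates pyruvate dehydrogenase, was higher in ITNK (0.60, SE 0.11, adjusted p = 4.55e-04) and in LAK (1.03, SE 0.11, adjusted p = 2.03e-06) than in DN3 in the limma fit. Pdha1, the catalytic alpha subunit of that enzyme, was lower in ITNK (-0.74, SE 0.11, adjusted p = 5.14e-05) and in LAK (-0.82, SE 0.11, adjusted p = 1.21e-05), and the ITNK call was lost with median scaling (-0.34, 0.0675). Against DN3 the directions of Pdhb turned when its probes were averaged, and its ITNK call (0.26, adjusted p = 0.0280) was lost without ITNK 2 (0.0767), ITNK 4 (0.0597), DN3 1 (0.0864), DN3 3 (0.0517) or DN3 4 (0.0522). Other calls in ITNK against DN3 that were lost when 1 array was left out were Emb (0.63, adjusted p = 0.0208) without ITNK 1 (0.0546), ITNK 2 (0.0550) or DN3 1 (0.0600), and Pdk3 (0.44, adjusted p = 0.0199) without ITNK 1 (0.0641), ITNK 3 (0.0509) or DN3 1 (0.0541). With slide as a block Emb, Pdhb and Pdk3 did not pass in ITNK against DN3 (0.155, 0.137 and 0.160).

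Of 11 pentose phosphate genes 7 were measured, and in ITNK against DN3 1 was higher and 2 lower (H6pd and Pgls, both lost with median scaling, at adjusted p = 0.891 and 0.606). There 23.5% of all genes were higher and 28.2% lower. Rpia, which isomerises ribose 5-phosphate, was higher in ITNK (0.90, SE 0.09, adjusted p = 2.55e-06) and in LAK (1.26, SE 0.09, adjusted p = 3.81e-08) than in DN3. Of 16 genes of gluconeogenesis and glycogen 6 were measured. Fbp1, which reverses the phosphofructokinase step, was lower in ITNK than in DN3 (-2.10, SE 0.36, adjusted p = 2.42e-04) and was undetected in LAK, at least 10.7-fold below DN3 (adjusted p = 1.34e-06). Pygl, a glycogen phosphorylase, was undetected in DN3, at least 2.73-fold higher in ITNK (adjusted p = 2.42e-04) and at least 5.97-fold higher in LAK (adjusted p = 7.43e-07).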
